A study of Mus musculus with 4 samples.

Results

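Laminins and integrins are the chains by which epithelial cells build a basement membrane and hold on to it. The members were all gene symbols of the laminin alpha, beta and gamma families and of the integrin alpha and beta families in the count files. They were picked by name and not by any measured value, though earlier results of these data were known. They came to 37 of 22609 genes, namely 11 laminin chains, 18 integrin alpha chains and 8 integrin beta chains. Of these, 33 had at least 20 reads in at least 1 library and were analysed. The other 4, Itga4, Itgad, Itgal and Itgam, stayed below that level in every library.

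RNA was sequenced from mammospheres, floating colonies grown for 7 days in ultralow attachment plates from sorted mammary basal cells of Balb/C mice aged 4 months. From 21 days of age the mice were gavaged for 3 weeks with sesame oil or with BPA, bisphenol A, at 25 µg/kg/day, a compound used in plastics that can act as an estrogen. At 2 months some mice of each arm were gavaged once with 7,12-dimethylbenz[a]anthracene (DMBA, a polycyclic hydrocarbon carcinogen) at 30 mg/kg. Every group was kept on a low-phytoestrogen diet, and every culture held EGF, bFGF, heparin, insulin and hydrocortisone. The 4 groups were therefore control (oil alone), BPA (BPA without DMBA), DMBA (oil, then DMBA) and BPA+DMBA (both). Each group was 1 library made from spheres of 5 pooled animals, so differences between animals cannot be seen. The surface markers used for the sort are not stated in the labels.

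A laminin is a secreted trimer of an alpha, a beta and a gamma chain, and the alpha chain sets which receptors it binds. Lama3 and Lamb3 are chains of the anchoring laminin of epithelia, while trimers with Lamb1 or Lamb2 and Lamc1 make up most other basement membranes. An integrin is a membrane receptor of an alpha and a beta chain: Itga6 with Itgb4 binds laminin in the hemidesmosome, Itga3 or Itga6 with Itgb1 binds laminin at focal contacts, and Itga5 with Itgb1 binds fibronectin. In the mammary gland, basal cells rest on the basement membrane and are sorted by their high levels of Itga6 or Itgb1.

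Promoter sequences are shown for members whose values the results turn on, as far as RefSeq entries (build GRCm38.p6) were matched, which was the case for 23 of the 37 members. Lama3, Itga7 and Lamc3 were not among the 23. Each run covers the 200 bases from 250 to 51 bases before an annotated start site, read 5′ to 3′ on the gene's strand. Itgb6 and Itga2 are shown because both fell with DMBA, and Lama2 and Lamb1 because both were lowest in the libraries with a single exposure. Capitals mark GC boxes.
Itgb6, first start site, chr2:60722654-60722853, minus strand: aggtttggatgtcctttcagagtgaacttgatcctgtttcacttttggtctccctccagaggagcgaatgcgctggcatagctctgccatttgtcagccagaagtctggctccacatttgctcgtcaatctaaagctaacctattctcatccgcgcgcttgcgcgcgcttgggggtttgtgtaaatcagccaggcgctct
Itgb6, second start site, chr2:60673744-60673943, minus strand: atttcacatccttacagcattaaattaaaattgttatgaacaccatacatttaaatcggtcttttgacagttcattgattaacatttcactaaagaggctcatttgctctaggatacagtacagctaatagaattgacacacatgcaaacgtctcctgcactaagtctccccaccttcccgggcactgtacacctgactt
Itga2, chr13:114932151-114932350, minus strand: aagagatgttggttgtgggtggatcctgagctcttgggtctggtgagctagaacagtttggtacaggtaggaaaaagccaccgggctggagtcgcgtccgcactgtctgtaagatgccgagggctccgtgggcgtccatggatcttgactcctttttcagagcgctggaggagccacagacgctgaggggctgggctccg
Lama2, chr10:27616993-27617192, minus strand: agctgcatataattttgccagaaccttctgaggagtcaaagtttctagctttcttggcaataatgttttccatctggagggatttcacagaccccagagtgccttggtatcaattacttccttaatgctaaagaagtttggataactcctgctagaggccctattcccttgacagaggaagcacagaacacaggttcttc
Lamb1, chr12:31265043-31265242, plus strand: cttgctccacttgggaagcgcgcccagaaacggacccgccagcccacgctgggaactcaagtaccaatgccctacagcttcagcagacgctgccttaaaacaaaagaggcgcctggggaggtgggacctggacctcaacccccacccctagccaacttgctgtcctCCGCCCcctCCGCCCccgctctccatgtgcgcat
Of the 3 motifs searched on both strands, the GC box (GGGCGG) was found in the windows of 7 of the 23 matched members, against 24.6% of 32851 windows of all genes. The 23 members had 26 windows. A member was counted if any of its windows held the motif, whereas the share over all genes is of single windows. Lamb1 held the GC box at 84 and 75 bases before its start site, in both cases on the opposite strand. The AP-1 motif (TGANTCA) and the TATA box (TATAAA) were found in 0 of the 23, against 5.57% and 9.14% of all windows. As the windows end 51 bases before the start site, motifs nearer to it were not searched. These counts therefore do not show whether a promoter has a TATA box close to its start site. The gene counts do not separate the start sites of Itgb6.

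The libraries held 30627055, 19672730, 26682738 and 15672532 gene reads, written here and below in the order control, BPA, DMBA, BPA+DMBA, and the members took 0.843%, 0.842%, 0.79% and 0.855% of them. Basal markers fixed for the cells were present: Krt14, a basal keratin, stood between 299 and 878 CPM (reads scaled to a common library size by the trimmed mean of M-values), and the summed CPM of 10 basal markers was 1507, 1456, 2650 and 2646. Luminal markers were present as well, with sums of 2871, 3091, 2238 and 2342 over 11 genes. Endothelial and pericyte markers summed to 634, 551, 580 and 791 over 14 genes, and markers of neurons and glia to 435, 439, 398 and 366 over 8. Fibroblast markers summed to 10190, 7499, 6581 and 10590 over 10 genes, with none at 0. In a bulk library, fewer cells of a type and less RNA per cell cannot be told apart.

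Ordered by level per length (CPM per kilobase of annotated exon, mean of 4 libraries), Itgb1 stood first at 445, ranging from 379 to 488 between libraries. Itga5 followed at 157 and Itga3 at 112, and their ranges (129 to 200 and 103 to 134) overlapped. Lower in the order were the anchoring chain Lamb3 (88.3), then Lamb1 (82.7), Itgb4 (72.7), Itga6 (71.0) and Lamc1 (68.0). Neighbours in this stretch overlapped between libraries. Itgb5, Itgav, Lama5 and Lamb2 stood between 53.1 and 62.8. Lama4, Lama3 and Lama2, alpha chains of different trimers, lay close together at 23.2, 20.8 and 20.8. The collagen receptor chains Itga1 and Itga11 were at 0.448 and 0.281, and the leukocyte chain Itgax was at 0.12. Between their lowest and highest library, 29 of the 33 members differed by less than 2-fold. The share of all genes that did so was not computed, so this cannot be read as particular to the members.

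**Figure D1:**
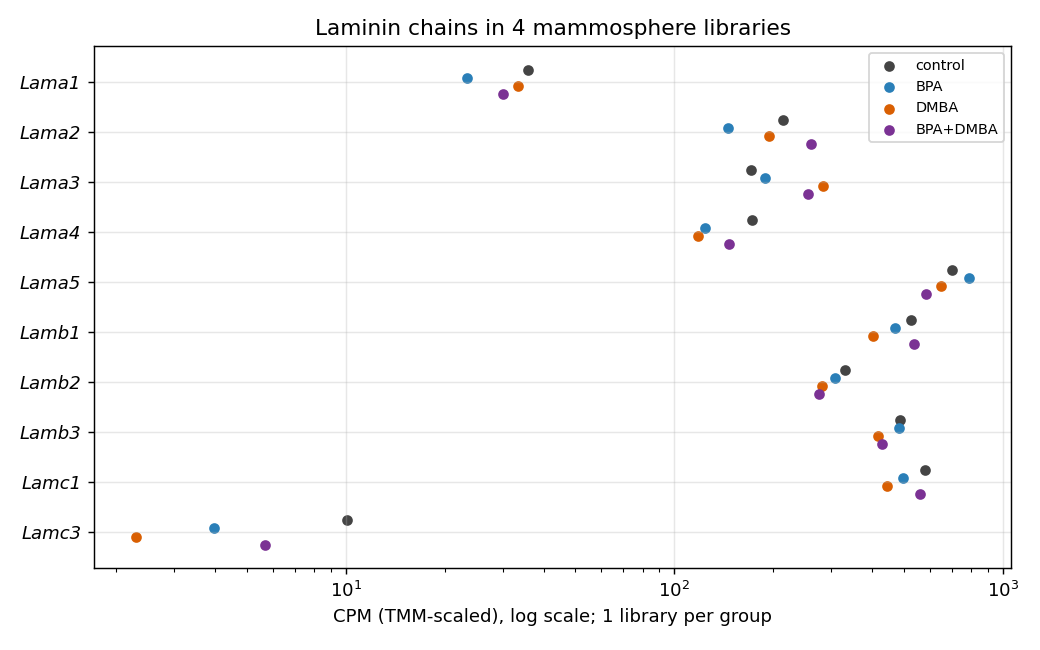
Level of 10 laminin chains in CPM on a log scale, with 1 point per library (control, BPA, DMBA, BPA+DMBA). Lama3 is higher in the 2 DMBA libraries, at 282 and 254 CPM against 171 and 188, and Lamc3 is spread most, from 2.30 to 10.1 CPM.

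The effect of DMBA was asked without BPA (DMBA over control) and with BPA (BPA+DMBA over BPA), in pairs with no library in common. Of the 33 members 1 rose, Lama3, and 3 fell, Itgb6, Itga2 and Itga7, by edgeR's quasi-likelihood test of an additive model of BPA and DMBA (Benjamini-Hochberg adjusted over all 13638 genes, threshold 0.05). That is 12.1% of the members, where 14.4% of all genes passed (6.67% higher, 7.72% lower), so the share called was near the background. Of the 29 others, 9 had values above 0 and 20 below. The median log2 value was -0.172 over the members and -0.003 over all genes. With the trend of the ratios with transcript length (given below) removed, these medians were -0.071 and -0.042. With no replicates, the spread in this test is the departure of the libraries from additivity, with 1 residual degree of freedom. With total counts as scaling 1 member rose and 1 fell, where 9.68% of all genes passed (889 higher, 431 lower). Without the BPA+DMBA library 1 rose and 6 fell, where 20% did (1308 higher, 1420 lower).

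Lama3, the alpha chain of the anchoring laminin, had 5059, 3603, 7872 and 4038 reads, or 171, 188, 282 and 254 CPM. Both DMBA libraries stood above both libraries without it. Its log2 change was 0.58 (SE 0.0933, edgeR adjusted p = 0.0138), with 0.73 without BPA (95% counting interval 0.68 to 0.78) and 0.43 with BPA (0.37 to 0.50). It passed in all 12 alternative fits, with log2 values from 0.50 to 0.80. Lama3 is annotated with a long and a short form that gene counts do not separate. Its length here, 10745 bases, is the union of annotated exons. Its values per kilobase, its share of alpha chains and its value without the length trend therefore depend on which form was made. Of 10 basal markers 6 rose with DMBA and 0 fell, and of 11 luminal markers 1 rose and 5 fell. Of 13 measured endothelial and pericyte markers 7 rose and 0 fell, with a median log2 value of 0.8. Over all genes 6.67% rose and 7.72% fell. Of the 13, 11 were higher in both DMBA libraries, as were 31.7% of all genes. The summed CPM of the endothelial and pericyte list was nevertheless lower in DMBA (580) than in control (634), and higher in BPA+DMBA (791) than in BPA (551). The part of these cell types in the value of Lama3 was not tested.

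No change was called for Lamb3, the beta chain that joins Lama3. It stood at 486, 481, 416 and 427 CPM, lower in both DMBA libraries, with a log2 value of -0.20 (SE 0.0847, edgeR adjusted p = 0.170). The count ratio of Lama3 to Lamb3 was 0.351 in control and 0.392 in BPA, and 0.679 in DMBA and 0.596 in BPA+DMBA. The exact 95% intervals, which cover counting error only, overlapped between none of the libraries. They thus also separated control from BPA, and DMBA from BPA+DMBA. A ratio within a library does not depend on scaling.

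Lama5, the most abundant alpha chain, made up 39.7% to 55.6% of alpha chain CPM per kilobase. It stood at 699, 790, 649 and 581 CPM, lowest where both agents were given, and its log2 value of -0.27 did not pass (SE 0.113, edgeR adjusted p = 0.157). The count ratio of Lama3 to Lama5 was 0.244 in control (interval 0.237 to 0.252) and 0.238 in BPA (0.230 to 0.247). With DMBA it was 0.435 (0.424 to 0.447), and with both agents 0.438 (0.422 to 0.454). This ratio was thus shifted by nearly the same amount with and without BPA. As a share of all alpha chain CPM per kilobase, Lama3 made up 12.1% in control and 20.8% in DMBA, a wider step than the 14.05% in BPA and 18.4% in BPA+DMBA.

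**Figure D2:**
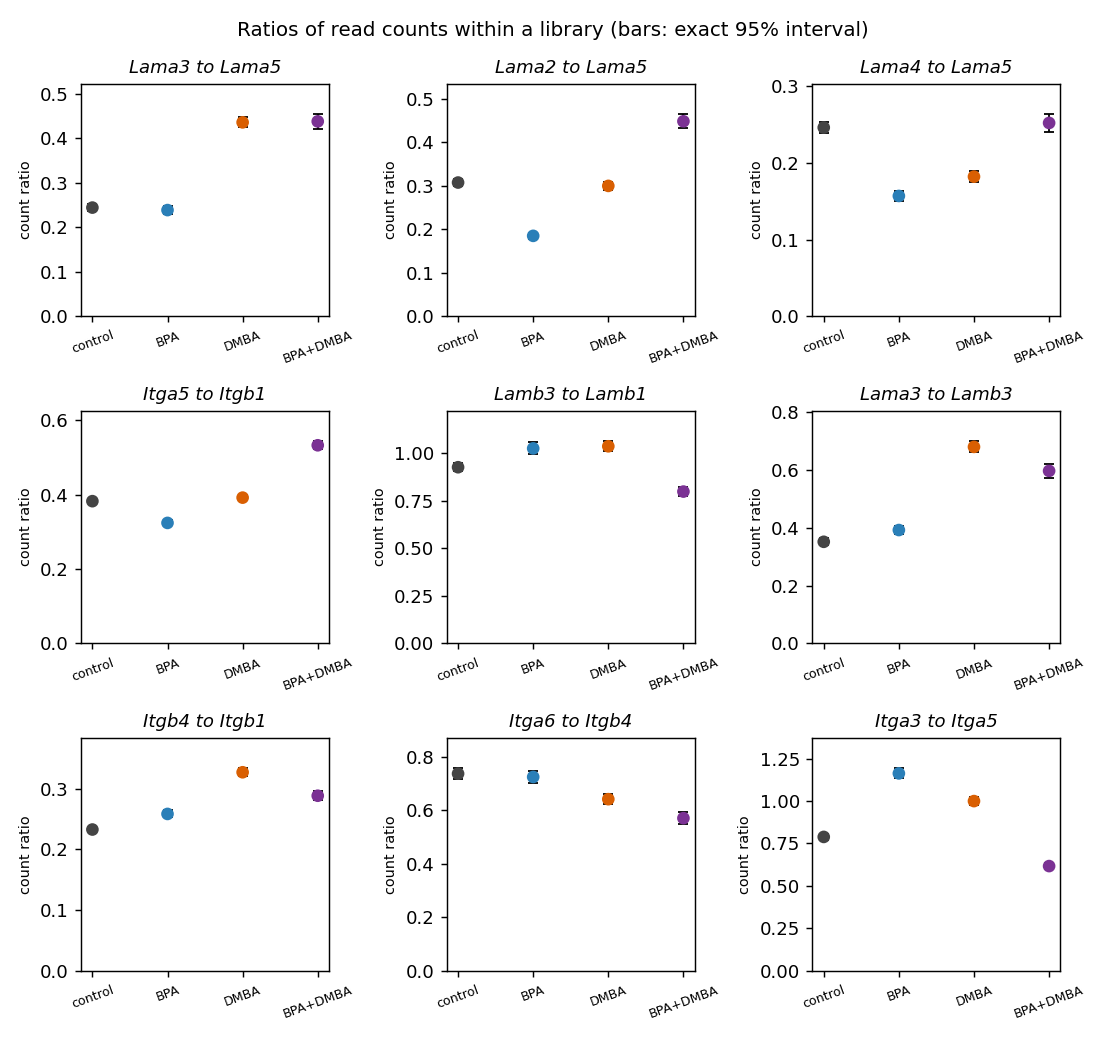
Ratio of read counts of 2 chains within each library, with exact 95% intervals that cover counting error only. The ratio of Lama3 to Lama5 is 0.244 and 0.238 without DMBA and 0.435 and 0.438 with it, while the ratio of Itga3 to Itga5 is highest in BPA (1.16) and lowest in BPA+DMBA (0.617).

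Lama1, Lama2 and Lama4 are alpha chains of other basement membranes, those of muscle, nerve and vessels among them. Lama2 stood at 215, 146, 194 and 260 CPM, with DMBA log2 ratios of -0.14 without BPA and 0.83 with it. Lama4 stood at 172, 124, 118 and 147 CPM, with -0.54 and 0.24. The 2 pairs thus gave opposite signs for both chains, and their additive values of 0.34 (SE 0.207, edgeR adjusted p = 0.312) and -0.16 (SE 0.169, adjusted p = 0.571) did not pass. Lama2 passed without the control library (0.64, adjusted p = 0.0433), where the lone library without DMBA is assumed to vary like the others. Lama1 stood at 36.0, 23.4, 33.4 and 30.1 CPM and was lowest in BPA.

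Among the widely used beta and gamma chains, Lamb1 stood at 525, 469, 402 and 535 CPM and Lamc1 at 578, 495, 444 and 557. Both were lowest in DMBA, next lowest in BPA, and higher in the other two libraries. Their reads kept a narrow ratio to each other, 0.909, 0.949, 0.907 and 0.961. Lamb2, a beta chain of muscle and kidney basement membranes, stood at 330.8, 308, 282 and 275 CPM, with a log2 value of -0.20 (SE 0.0782, edgeR adjusted p = 0.144).

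Lamc3, a minor gamma chain, differed most between libraries. It had 300, 76, 64 and 90 reads, or 10.1, 3.97, 2.30 and 5.67 CPM. Control was highest and DMBA lowest. The DMBA log2 ratio was -2.10 without BPA (95% counting interval -2.55 to -1.75) and 0.50 with it (0.06 to 0.97). The additive value of -0.90 (SE 0.560, edgeR adjusted p = 0.324) therefore described neither pair, and without the BPA+DMBA library it was -1.66 (adjusted p = 0.0366).

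Itgb4, the beta chain of the hemidesmosome receptor, stood at 428, 481, 473 and 475 CPM, an order in which control was lowest. Its log2 value was 0.06 (SE 0.0904, edgeR adjusted p = 0.674). Its partner Itga6 stood at 315, 349, 303 and 271 CPM, lower in both DMBA libraries, with -0.21 (SE 0.0984, adjusted p = 0.205). Per read of Itgb4 there were 0.737, 0.724, 0.641 and 0.570 reads of Itga6, lowest with both agents. Itga3, the other laminin receptor chain of epithelium, stood at 554, 702, 566 and 541 CPM and was highest in BPA.

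The shared chain Itgb1, which pairs with most alpha chains, stood at 1839, 1864, 1445 and 1649 CPM. Both DMBA libraries were lower, with a log2 value of -0.26 that did not pass (SE 0.117, edgeR adjusted p = 0.185). Itga7, a laminin receptor chain best known from muscle, fell from 7.28 and 7.58 CPM to 3.73 and 5.04 CPM. Its log2 change was -0.79 (SE 0.196, adjusted p = 0.0447) on 216, 145, 104 and 80 reads, and 4 of 12 alternative fits called it, with adjusted p from 0.00331 to 0.285. It was not called without the control (edgeR adjusted p = 0.0964), BPA (0.0997) or DMBA library (0.115).

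Among the collagen receptor chains, Itga2, the main one of epithelium, stood at 59.0, 53.8, 37.5 and 43.4 CPM. Both DMBA libraries were lower than both others, and the log2 change was -0.49 (SE 0.105, edgeR adjusted p = 0.0305). The call was lost with total counts as scaling (adjusted p = 0.0656), with DESeq2 (0.141), after thinning (0.0571), without the length trend (0.106) and without the control library (0.0729). Itga1, Itga10 and Itga11, collagen receptor chains of stromal cells and cartilage, gave log2 values of -0.14, -0.18 and 0.71, with adjusted p from 0.199 to 0.708. Itga11 had 43 reads or fewer in every library.

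Itgb6 pairs with Itgav in a receptor that activates latent TGF-beta in epithelium. It had 1003, 694, 631 and 372 reads, or 33.8, 36.3, 22.6 and 23.4 CPM. The 2 libraries without DMBA were alike and so were the 2 with it, with DMBA log2 ratios of -0.58 without BPA and -0.63 with it. Its log2 change was -0.60 (SE 0.0941, edgeR adjusted p = 0.0130), and 11 of 12 alternative fits called it, DESeq2 being the exception (adjusted p = 0.0647). Itgav itself stood at 464, 471, 400 and 416 CPM, a log2 value of -0.20 (adjusted p = 0.166), and the reads of Itgb6 per read of Itgav were 0.0729, 0.0770, 0.0567 and 0.0564.

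Itgb3, Itgb5 and Itgb8, which also pair with Itgav, did not follow Itgb6. Itgb3 stood at 217, 198, 149 and 216 CPM, and Itgb5 at 254, 204, 161 and 233 CPM. Both were lowest in DMBA and closer to control with both agents. Itgb8, another TGF-beta activating partner, stood at 74.4, 76.7, 77.1 and 50.5 CPM, low in BPA+DMBA alone. Without the BPA+DMBA library the DMBA fit called Itgb3 (-0.47, edgeR adjusted p = 0.00683) and Itgb5 (-0.50, 0.0222), and without the DMBA library it called Itgb8 (-0.58, 0.00723). These fits have DMBA as the only term, and the lone library of 1 arm is assumed to vary like the others.

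Itga5, the fibronectin receptor chain, stood at 703, 603, 566 and 878 CPM. It was highest with both agents, with DMBA log2 ratios of -0.31 without BPA and 0.54 with it. Itga8, a chain that binds nephronectin, was the steadiest member, at 45.3, 45.4, 47.7 and 47.1 CPM. Itga9, a receptor chain for tenascin-C and osteopontin, stood at 13.0, 11.1, 16.6 and 17.5 CPM, higher in both DMBA libraries. Its log2 value of 0.49 did not pass (SE 0.135, edgeR adjusted p = 0.0589), though 3 of 12 alternative fits called it.

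**Figure D3:**
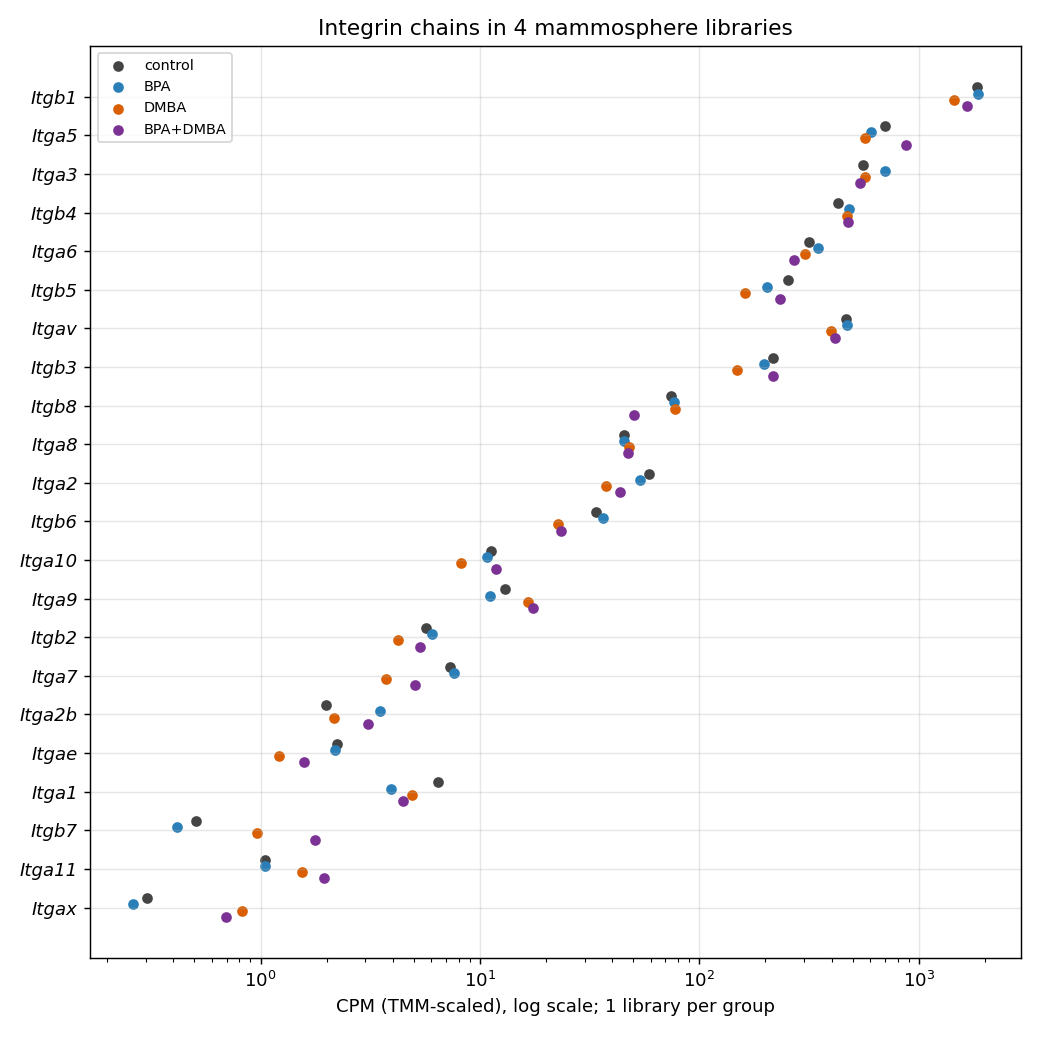
Level of the 22 analysed integrin chains in CPM on a log scale, with 1 point per library, ordered by level per length. Itgb6 and Itga2 are lower in both DMBA libraries, while Itga5 is highest in BPA+DMBA at 878 CPM.

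Most integrin alpha chains of leukocytes had few reads. Itgal, Itgam and Itgad had 7 reads or fewer in every library, and Itgal had 0 in control and BPA, which allows up to 0.101 and 0.157 CPM. Itgax had 9, 5, 23 and 11 reads and Itgb7 had 15, 8, 27 and 28, so both passed the count filter only through libraries with DMBA. Their log2 values were 1.41 (SE 0.490, edgeR adjusted p = 0.107) and 1.43 (SE 0.450, adjusted p = 0.0828). Without the DMBA library the log2 value of Itgb7 was 1.89. As the filter kept both genes through libraries where they were high, these positive values are no support for a difference. Itgb2, the common leukocyte beta chain, had 169, 116, 118 and 85 reads with no call. Itgae, the chain of intraepithelial lymphocytes that binds E-cadherin, had 66, 42, 34 and 25 reads and a log2 value of -0.69 (edgeR adjusted p = 0.179). Of 14 leukocyte markers 10 stayed below the filter, Ptprc had 3, 1, 2 and 2 reads, and Cd3g was at 0. Together the 14 summed to 317, 281, 163 and 193 CPM, mostly from Cd14, which had 8680 reads in control, while Lyz2, a myeloid lysozyme, had 8, 7, 31 and 44. The part of leukocytes in the values of Itgax and Itgb7 was not tested. Itga2b, the platelet chain, had 59, 67, 60 and 49 reads, while the summed CPM of 8 platelet markers was between 1.41 and 2.43.

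In single pairs, a member was counted as differing when its CPM ratio was at least 2-fold and the counting interval excluded equality. DMBA over control gave 2 such members, Itgax higher and Lamc3 lower, where 6.55% of all genes differed (4.24% higher, 2.31% lower). BPA+DMBA over BPA gave 1, Itgb7, which was higher, where 3.74% of all genes did (2.77% higher, 0.968% lower). BPA+DMBA over control also gave Itgb7 alone, at a log2 ratio of 1.64 (interval 0.85 to 2.81), against 4.38% (2.98% higher, 1.41% lower). Itgax and Itgb7 were kept by the count filter only through DMBA libraries, so their place among the higher members is no support for a difference. These pairs compare libraries and not conditions.

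**Figure D4:**
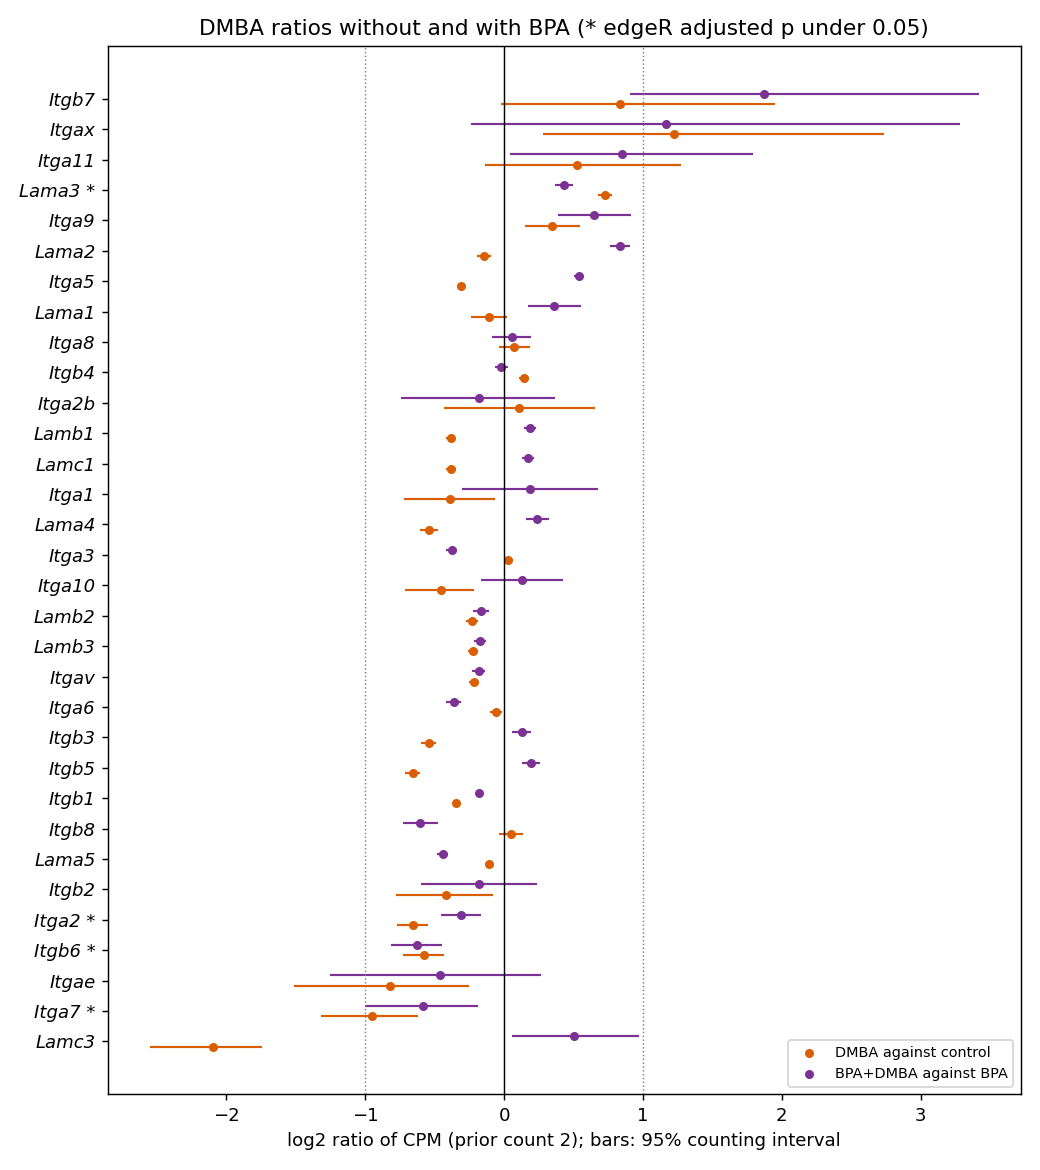
Log2 ratio of CPM, DMBA over control and BPA+DMBA over BPA, in 32 analysed members, sorted by the additive log2 change, with 95% counting intervals. Itgb6 has nearly equal ratios in both pairs (-0.58 and -0.63), whereas Lamc3 (-2.10 and 0.50) and Itga5 (-0.31 and 0.54) lie on opposite sides of 0.

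Transcript length moved with the DMBA ratios. Across 13510 genes the Spearman correlation of log2 ratio and exon length was -0.303 without BPA and -0.35 with it. Laminin transcripts are long, from 5125 to 11388 bases against a median of 3338, and the 3217 genes at least as long as the shortest of them had median log2 ratios of -0.152 and -0.178. With the length trend removed, Lama3 had 0.80 (SE 0.0873, edgeR adjusted p = 0.0148) and Itgb6 -0.51 (adjusted p = 0.0333), while Itga7 (-0.79, adjusted p = 0.0689) and Itga2 (-0.36, adjusted p = 0.106) no longer passed.

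The other proteins of the hemidesmosome, and the basal keratins that attach there, were taken from a list. In it 3 of 6 measured genes rose with DMBA and 1 fell, where 6.67% of all genes rose and 7.72% fell. Krt5 and Krt14, the keratins, rose by log2 changes of 1.95 and 1.46. Both are also among the basal markers counted above, so their rise is not a separate result. Col17a1, the transmembrane collagen that binds the Lama3 trimer, stood at 121, 133, 264 and 248 CPM, and rose by 1.01 (SE 0.0849, edgeR adjusted p = 0.00348). Dst, a plakin that links keratins to the complex, fell by 0.52 on the log2 scale (SE 0.0786, adjusted p = 0.0121), from 365 and 370 CPM to 259 and 254. Without the length trend Dst had -0.12 (adjusted p = 0.358), so that 3 of the 6 rose and 0 fell. Plec, the other plakin, and Cd151, a tetraspanin, had values of -0.26 (adjusted p = 0.131) and 0.13 (adjusted p = 0.312). The median over the 6, keratins included, was 0.574, against -0.003 over all genes. The genes that rose did not include the receptor chains Itga6 and Itgb4.

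Of 23 other basement membrane genes 1 rose and 3 fell, where 6.67% of all genes rose and 7.72% fell. The median log2 value was -0.105, against -0.003 over all genes. These counts are not read as particular to the list. Without the length trend 2 rose and 2 fell, where 7.71% of all genes passed. Smoc1, a matricellular calcium-binding protein, stood at 84.9, 51.4, 11.6 and 21.5 CPM and fell by 2.08 (SE 0.341, edgeR adjusted p = 0.0145). Frem2, a protein of the Fraser complex, fell by 1.22 (adjusted p = 0.0159), and Fbln1, a fibulin, rose by 0.87 (adjusted p = 0.00740). Agrn, a heparan sulfate proteoglycan that binds laminin, also fell, from 1140 and 1215 CPM to 789 and 812 (-0.56, adjusted p = 0.0194; 0.0601 without the length trend), and was singled out after its values were seen. Col4a4, the remaining gene named by rule, had -0.91 (adjusted p = 0.147) on 41 reads or fewer.

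Downstream of the integrins, 3 of 26 measured focal adhesion adaptors rose and 4 fell, with a median of -0.119, where 6.67% of all genes rose and 7.72% fell. Without the length trend 2 rose and 1 fell. Lims2, a LIM adaptor, rose by 1.25 (edgeR adjusted p = 0.0263), Tns4, a tensin, by 0.52 (0.0236) and Tgfb1i1, a paxillin relative, by 0.52 (0.0130), while Tns3, another tensin, fell by 0.54 (0.0416). Of these, Lims2 (adjusted p = 0.0571) and Tns3 (0.142) did not pass without the length trend. Of 24 integrin ligands outside the laminins 4 rose and 0 fell, where 14.4% of all genes passed: Tnxb, a tenascin (1.08, adjusted p = 0.0182), Nov, a matricellular protein (1.06, 0.0206), Vcam1 (1.01, 0.0420) and Icam1 (1.01, 0.00370), both ligands of leukocyte integrins. Ibsp, a bone sialoprotein, had -1.26 (0.0574). Icam1 was singled out after its values were seen. The median over the ligands was -0.139, and without the length trend 3 rose and 1 fell, Vcam1 no longer passing (adjusted p = 0.0645). Sdc1, a syndecan, was the only 1 of 9 laminin receptors outside the integrins to pass, with a rise of 0.58 (0.0155), and Mcam (0.45), Sdc4 (-0.30) and Dag1 (-0.28) did not. Of 7 processing enzymes Plat, a plasminogen activator, rose by 0.35 (0.0245) and Furin, a proprotein convertase, fell by 0.46 (0.0357), while Tll1 (-0.56) and Mmp2 (0.43) did not pass. Without the length trend neither Plat (adjusted p = 0.0743) nor Furin (0.0640) passed.

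The study's title names pubertal BPA, whose effect was asked without DMBA (BPA over control) and with DMBA (BPA+DMBA over DMBA). Of the 33 members 0 passed for BPA in edgeR's additive fit, where 0% of all genes passed. DESeq2 and edgeR's likelihood ratio test also called 0 members, and 2 members had an unadjusted p under 0.05, as did 304 of 13638 genes. Lama1 was one, with 1067, 448, 930 and 478 reads and a log2 value of -0.38 (SE 0.130, adjusted p = 0.999). Itga2b was the other, with a value of 0.67 (SE 0.257, adjusted p = 0.999). In single pairs Lamc3 alone differed at least 2-fold, lower in BPA than in control and higher in BPA+DMBA than in DMBA, where 0.829% (0.271% higher, 0.557% lower) and 1.09% (0.425% higher, 0.66% lower) of all genes differed.

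The BPA ratios of the members were compared without and with DMBA. The departure from additivity, which is the BPA log2 ratio with DMBA minus that without, was above 0 for 22 of the 33 members and below 0 for 11, and its 95% counting interval lay above 0 for 13 and below 0 for 7, against 15.8% and 16.8% of all genes. The width of such an interval follows the number of reads. The median departure was 0.302 over the members, 0.469 over the 11 laminin chains and -0.011 over all genes. A departure of at least 2-fold whose interval excluded 0 was found for 1 member, Lamc3 (2.60, interval 2.02 to 3.19), where 2.86% of all genes departed by as much (1.72% above 0, 1.14% below). Itgb7 had 1.04 on few reads, with an interval from -0.38 to 2.46. Lama2 followed at 0.98 (0.89 to 1.07), then Itgb5 and Itga5, each at 0.85, Lama4 at 0.78 and Itgb3 at 0.67. Itgb8 had the most negative value, -0.65 (-0.80 to -0.50), followed by Itga3 at -0.41, Lama5 at -0.34 and Itga6 at -0.31. No replicate error exists for any of these values.

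Seen as an order of libraries, 9 of the 33 members were lower in both single-exposure libraries than in control and in BPA+DMBA, against 10.7% of all genes. They were Lama2, Lama4, Lamb1, Lamc1, Lamc3, Itga5, Itga10, Itgb3 and Itgb5, which includes 5 of the 11 laminin chains. The opposite order, highest in both single exposures, was found for 2 members, Itga3 and Itgb8, against 8.78% of all genes. Of the other orders, 6 members were higher in both DMBA libraries (31.7% of all genes) and 11 were lower (31.6%), while 3 were higher in both BPA libraries (8.89%) and 2 lower (8.25%). The 6 include Itgax and Itgb7, which passed the count filter only through DMBA libraries. This ordering was chosen after the values were seen and has no fold limit. Total counts or DESeq2 size factors as scaling also gave 9 members lowest in both single exposures.

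Fibroblast markers took the same order. Of 10, 7 were lowest in both single exposures, namely Pdgfra, Col1a1, Col1a2, Col3a1, Thy1, Fap and Col6a3, and their list had a median departure of 0.875, while the other 3, Dcn, Lum and Dpt, were higher in both DMBA libraries. Col1a1, the main fibrillar collagen chain, stood at 3313, 2619, 1919 and 3484 CPM. Among the basement membrane genes, Col4a1 and Col4a2, the chains of the most widespread type of basement membrane collagen, stood at 2486, 1919, 2127 and 2979 CPM and at 1650, 1348, 1363 and 2001 CPM. The part of fibroblasts or other stromal cells in the order of the laminin chains was not tested. Lama3, Lamb3, Itgb4 and Itgb6 did not take this order.

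**Figure D5:**
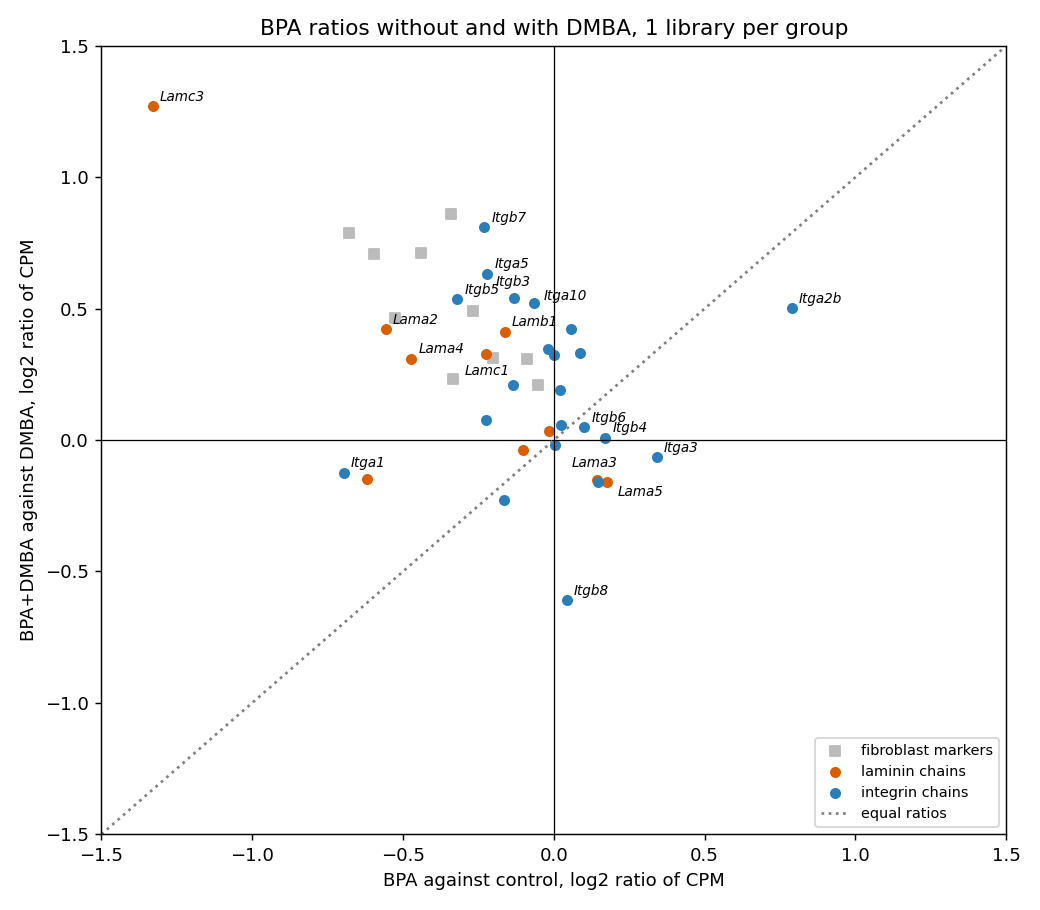
BPA over control on the x axis and BPA+DMBA over DMBA on the y axis, as log2 ratios of CPM, for 10 laminin chains, 22 integrin chains and 10 fibroblast markers, with a dotted line where both ratios are equal. Lamc3 lies at -1.33 and 1.27, and Lama2, Lama4, Lamb1, Lamc1, Itga5, Itgb3 and Itgb5 lie, like the fibroblast markers, at negative x and positive y.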

How the data were processed

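The deposited files give each library's whole-number counts by gene symbol, not normalized. Closing entries for unassigned reads, 36.8% to 38% of a library, were left out. Tools and build per the submitters' processing notes are HTSeq, DESeq, CASAVA (1.8.2) and mm9. How reads were aligned and whether strand was used is not stated, so reads from genes that overlap on opposite strands cannot be told apart.

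Genes with at least 20 counts in 1 library or more were kept. Counts were scaled by TMM in edgeR 4.0.16 (R 4.3.3), and the additive model was fitted across all kept genes with the quasi-likelihood test. Ratios between libraries used a prior count of 2, with exact 95% Clopper-Pearson intervals that cover counting error only, as do the limits for a count of 0 (3 counts). A departure's interval came from the 4 counts. Alternatives changed the scaling, filter, prior count (0.5), depth, test (DESeq2 1.42.0, edgeR's likelihood ratio test), length trend and libraries. Lengths were exon unions of GENCODE M21 (GRCm38), used for length only. Scripts were tested on simulated data. All members were eligible for naming, with up to 4 genes of each pathway list by size of the DMBA change. The values of 1 member are not reported here, though counts and medians over the members include it. Members and lists were chosen with earlier results of these data known.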

Additional observations from a re-analysis of the deposited data

Results flagged for a closer look

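Lamc3 was picked out because its BPA ratio was at least 2-fold in opposite directions without and with DMBA, at log2 values of -1.33 without DMBA (95% counting interval -1.73 to -0.98) and 1.27 with DMBA (0.82 to 1.79), a departure of 2.60. With 1 library per group the difference was not tested against replicate error. The BPA ratio without DMBA rests on 300 reads in control and 76 in BPA, and the ratio with DMBA rests on 64 reads in DMBA and 90 in BPA+DMBA.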

How the results depend on the processing

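Of the 33 members 4 were called for DMBA, 1 higher and 3 lower. The count was 2 with total counts as scaling (9.68% of all genes passed), 2 after thinning to the smallest total (5.88%), 2 without the length trend (7.71%), 1 with DESeq2 (4.95%) and 7 with edgeR's likelihood ratio test (18.4%), against 14.4% in the fit reported. Leaving out 1 library gave 3 to 7, with 7 without BPA+DMBA (20%). Total counts moved the split over all genes from 909 higher and 1053 lower to 889 and 431. For BPA every fit gave 0 members. Thinning changed the members at least 2-fold apart to 1 in DMBA against control, 2 in BPA against control and 2 in BPA+DMBA against control.

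Among uncalled DMBA values the sign changed without the length trend for Itga1 (0.0762) and Lamc1 (0.0366), and for Itga2b with total counts (0.0516) and after thinning (0.119). Leaving out 1 library gave values on both sides of 0 for Itga1 (-0.447 to 0.259), Itga10 (-0.424 to 0.0925), Itga2b (-0.452 to 0.364, with 0.2125 without DMBA), Itga5 (-0.199 to 0.425), Itgb3 (-0.472 to 0.0592), Itgb4 (-0.0235 to 0.148), Itgb5 (-0.502 to 0.0252), Itgb8 (-0.582 to 0.0379), Lama1 (-0.177 to 0.441), Lama4 (-0.382 to 0.0908), Lamb1 (-0.299 to 0.105) and Lamc1 (-0.267 to 0.0526, with 0.0144 without control). The causes were not tested.

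No paired analysis was possible because each group is 1 library and the labels carry no replicate numbers. Additive BPA values were recomputed for Lama1 and Itga2b only.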
